A study of Mus musculus with 18 samples.

Results

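The comparison set cells that received Wnt protein in place of CHIR against cells from which CHIR was withdrawn for 48 h. Its members were the 3 libraries titled for Wnt and the 3 titled for 48 h withdrawal, 6 of the 18 libraries of the series, chosen by title alone. The cells were mouse alveolar type 2 cells from lung, kept for 19 days with CHIR99201 (spelled as in the labels, which call it a Wnt agonist) before the treatments. All groups received LGK974, a porcupine inhibitor that stops cells from releasing Wnt ligands of their own. WNT libraries came from cells given LGK974 and Wnt, with CHIR removed, and 48 h withdrawal libraries from cells given LGK974 with CHIR removed for 48 h. The labels give 8 to 12 h as the length of the treatments, and they do not state which Wnt protein was used, its dose, the time since CHIR removal in the WNT cells, or the strain. They also do not say whether replicates were separate cultures, so the p-values reflect library-to-library variation that could be technical. Other groups, used only for context, were cells with a FZD5 agonist, a FZD6 agonist, CHIR throughout, or 24 h withdrawal, with 3 libraries in each of the 6 groups.

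Wnt proteins bind Frizzled receptors with the co-receptors Lrp5 and Lrp6. Binding halts the complex of Apc, Axin and Gsk3 that marks beta-catenin for destruction, and beta-catenin then acts with TCF/LEF factors on target genes. In most tissues these targets include feedback inhibitors such as Axin2, Nkd1, Rnf43, Znrf3 and Notum, so that their transcripts serve as readouts of the pathway. In the lung, alveolar type 2 cells make surfactant and renew the alveolar epithelium, and Wnt signalling is known to favour the type 2 state over the thin type 1 state.

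The upstream sequence of 3 classical Wnt targets is given because the comparison asks first whether such genes were higher with Wnt: Axin2, whose transcript was near its floor in both groups, and Nkd1 and Sp5, which were well expressed in both. Each line holds the 250 bases before the RefSeq start on the plus strand of GRCm38.p6, and capitals mark matches to the TCF/LEF motif, searched on both strands as CTTTGAT and its variants CTTTGAA, then also CTTTGTT together with CTTTGTA.
Axin2: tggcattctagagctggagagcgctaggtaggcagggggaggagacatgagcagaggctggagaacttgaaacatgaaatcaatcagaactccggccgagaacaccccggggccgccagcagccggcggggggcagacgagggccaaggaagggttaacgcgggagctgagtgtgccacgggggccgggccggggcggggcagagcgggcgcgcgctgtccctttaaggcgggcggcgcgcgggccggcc
Nkd1: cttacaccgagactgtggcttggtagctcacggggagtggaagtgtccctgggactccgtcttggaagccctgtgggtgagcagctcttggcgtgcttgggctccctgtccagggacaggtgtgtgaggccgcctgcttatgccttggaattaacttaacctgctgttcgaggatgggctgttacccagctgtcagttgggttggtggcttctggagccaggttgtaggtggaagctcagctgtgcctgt
Sp5: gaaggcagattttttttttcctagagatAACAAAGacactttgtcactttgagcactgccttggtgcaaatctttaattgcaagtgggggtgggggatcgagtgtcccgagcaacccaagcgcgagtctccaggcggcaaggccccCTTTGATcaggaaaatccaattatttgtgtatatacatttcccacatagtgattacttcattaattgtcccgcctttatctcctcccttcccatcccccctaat
The windows lie at chr11:108920099-108920348, chr8:88527383-88527632 and chr2:70474673-70474922. The Nkd1 window lies inside the gene's coordinates given below, downstream of their start, so it does not show the sequence before that start. Sp5 held 2 matches, starting 222 and 104 bases before the start, and the windows of Axin2 and Nkd1 held none. Of 32851 RefSeq windows of the same length, 4874 (14.8%) held at least 1 match.

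Total gene counts were 42336825, 52030066 and 42656887 in WNT replicates 1 to 3, and 42304089, 34087850 and 36465714 in 48 h withdrawal replicates 1 to 3. Pearson's r of log2 CPM over 10432 genes was 0.989 to 0.994 within WNT, 0.986 to 0.995 within 48 h withdrawal and 0.976 to 0.993 between the groups. The ranges of r overlapped, and the lowest value was between the groups. Chi-square per degree of freedom was 14.3 to 33.1 within WNT, 7.53 to 27.97 within 48 h withdrawal and 14.75 to 59.91 between the groups. No pair was thus within sampling noise. The largest values were those of WNT replicates 2 (59.91) and 3 (49.58) against 48 h withdrawal replicate 2. The first principal component held 53.8% of the variance and ran from WNT replicate 2 (14.2) to 48 h withdrawal replicate 2 (-23.8), with the other 4 libraries between -1.74 and 9.32. The type 2 label held: the summed level of 26 type 2 markers was 167800 to 182500 CPM in WNT and 174900 to 180900 CPM in 48 h withdrawal. Type 1 markers were also present in every library. The 22 listed summed to 12350 to 12600 CPM in WNT and 12680 to 14190 CPM in 48 h withdrawal. Markers of lineages other than these alveolar ones were low. Club and secretory markers summed to 520 to 567 CPM in WNT and 554 to 726 CPM in 48 h withdrawal, mostly Cyp2f2, with Bpifa1, Bpifb1 and Reg3g at 0. Ciliated markers summed to 9.41 to 9.95 CPM in WNT and 11.01 to 18.5 CPM in 48 h withdrawal, with Dnah5, Ccdc153 and Sntn at 0. Endothelial markers summed to 12.6 to 17.9 CPM in WNT and 12.8 to 13.3 CPM in 48 h withdrawal, with Cdh5, Kdr, Tek, Emcn and Car4 at 0. Basal, neuroendocrine, mesenchymal and gastric or gut markers stayed at or below 2.63 CPM in every one of the 6 libraries, counting each list's sum. Of the haematopoietic markers, Lyz2, which type 2 cells also express, made up nearly all of the sum of 1415 to 1585 CPM in WNT and 1123 to 1214 CPM in 48 h withdrawal, with Cd68 at 7.26, 13.3 and 10.4 CPM with Wnt, against 7.87, 6.47 and 7.59 CPM after 48 h withdrawal, and Adgre1, Marco, Itgam and Itgax at 0.

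With Wnt in place of CHIR, no gene of the 15183 tested was called higher or lower than after 48 h of withdrawal by edgeR's quasi-likelihood test with Benjamini-Hochberg adjustment (0%, threshold 0.05). The smallest adjusted p was 0.320. At an unadjusted p under 0.05 there were 1546 genes (10.2%), of which 743 (4.89%) were higher and 803 (5.29%) lower with Wnt. DESeq2, run as an alternative, called 22 genes higher (0.204%) and 64 lower (0.594%) of the 10767 to which it gave an adjusted p. limma voom called none, with 1521 genes at an unadjusted p under 0.05. The fit without a filter on low counts called 195 higher and 195 lower.

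Intervals were narrow for well-expressed genes. The 95% interval of the fold change lay inside 1.5-fold either way for 9965 of the 15183 genes (65.6%), and inside 2-fold for 12409 (81.7%). Among the 10432 genes with an average above 2 log2 CPM, 9475 (90.8%) were inside 1.5-fold, and 7 had an estimate beyond 2-fold. Over all genes tested the median log2 fold change, WNT over 48 h withdrawal, was 0.0032 and the median of its absolute value 0.113, and 7713 (50.8%) had an estimate above 0.

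**Figure D1:**
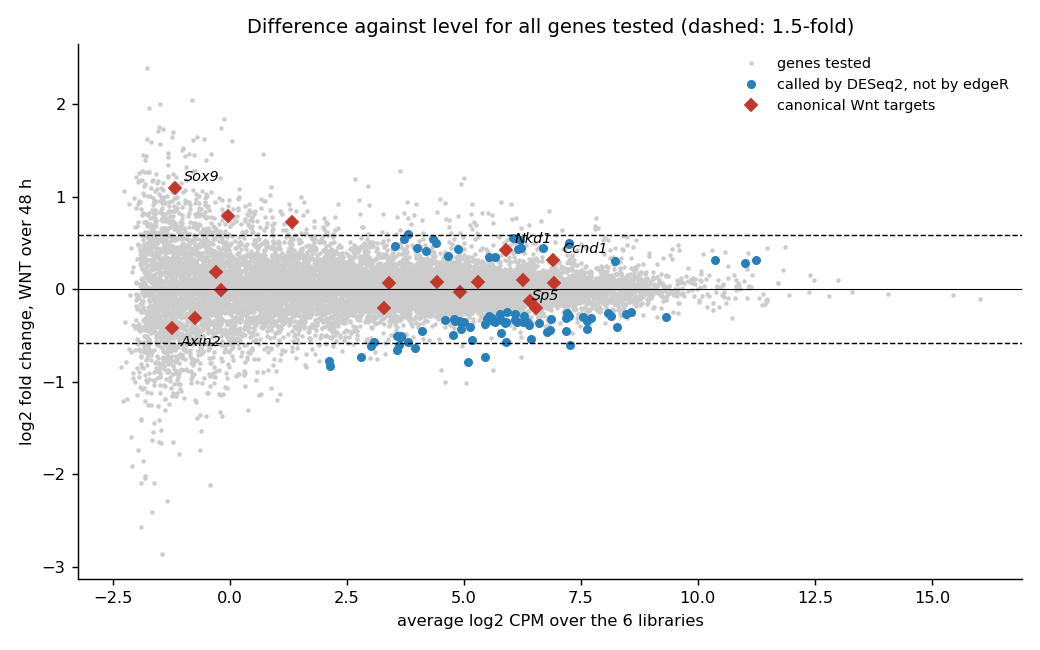
Log2 fold change of WNT over 48 h withdrawal (vertical) against the average log2 CPM of the 6 libraries (horizontal) for the 15183 genes tested, with DESeq2's 86 calls in blue, the 18 tested canonical Wnt targets as red diamonds and 1.5-fold as dashed lines. Most well-expressed genes lie between the dashed lines, and the Wnt targets beyond 1.5-fold (Sox9 among them) are low-level genes at the left.

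Canonical Wnt targets as a group did not separate WNT from 48 h withdrawal. Of 30 listed, 18 passed the filter on low counts, none was called, 11 were fitted higher and 7 lower, and the median log2 fold change was 0.075, against 0.0032 for all genes. Without WNT replicate 1 the median was -0.03, with 9 of 19 tested members fitted higher, and with any other library left out it was 0.04 to 0.10. Dkk1, Dkk2, Fgf20, Cdx1, Tbx3 and Sp8 had no counts in any of the 6 libraries. An unadjusted p under 0.05 was reached by Ccnd1 and Ephb2 with higher and by Fzd7 with lower fitted values.

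Axin2 (chr11:108920349-108950783), the scaffold of the destruction complex and the most widely used readout, had 0.378, 0.368 and 0.234 CPM in WNT libraries, against 0.406, 0.754 and 0.164 CPM in 48 h withdrawal libraries. These were 16, 19 and 10 reads in WNT and 17, 26 and 6 reads in 48 h withdrawal, and the groups overlapped. The log2 fold change was -0.42 (SE 0.54, 95% interval -1.61 to 0.77, edgeR adjusted p = 0.817). The upper bound of the interval was thus a 1.71-fold higher level with Wnt. Nkd1 (chr8:88521354-88594884), a Dishevelled-binding inhibitor, had 48.0, 79.8 and 77.9 CPM in WNT libraries, against 66.6, 30.0 and 56.2 CPM in 48 h withdrawal libraries. The spread within each group was wide and the groups overlapped (log2 fold change 0.43, 95% interval -0.61 to 1.46, edgeR adjusted p = 0.745). Sp5 (chr2:70474923-70477729), a zinc-finger factor that TCF sites are known to control, had 82.8, 77.6 and 78.3 CPM in WNT libraries, against 69.7, 72.3 and 80.7 CPM in 48 h withdrawal libraries. Its interval was narrow, at -0.05 to 0.25 around a log2 fold change of 0.10 (edgeR adjusted p = 0.636).

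Of the ubiquitin ligases that remove Frizzled from the surface, Rnf43 was close in both groups and Znrf3 was less tightly bounded. Rnf43 had 35.5, 44.5 and 41.0 CPM with Wnt, against 36.4, 36.6 and 41.5 CPM after 48 h withdrawal (log2 fold change 0.08, 95% interval -0.13 to 0.28). Znrf3 had 11.02, 8.30 and 7.95 CPM with Wnt, against 10.3, 13.9 and 7.12 CPM after 48 h withdrawal (log2 fold change -0.20, 95% interval -0.74 to 0.34). Both genes overlapped between groups. A rise of Znrf3 beyond 1.27-fold lay outside its interval, but a fall of more than 1.5-fold did not. Lgr5, a receptor for R-spondins, was not tested for want of counts: it had 0, 0.213 and 0.304 CPM in WNT libraries, against 0, 0 and 0.110 CPM in 48 h withdrawal libraries. Lef1 had 0 CPM in all 3 WNT libraries, against 0.048, 0 and 0.055 CPM in 48 h withdrawal libraries, so its level was at or under the floor of 3 counts per library in both groups. Notum, an enzyme that inactivates Wnt by removing its lipid, had 0.378, 0.484 and 0.631 CPM with Wnt, against 0.167, 0.696 and 1.01 CPM after 48 h withdrawal. Sox9 had 0.426, 0.736 and 0.374 CPM with Wnt, against 0.477, 0.029 and 0.192 CPM after 48 h withdrawal, and its interval was wide (log2 fold change 1.09, 95% interval -0.38 to 2.56).

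The target with the smallest p was Ccnd1 (chr7:144929931-144939925), the G1 cyclin D1. It had 121, 128 and 153 CPM in WNT libraries, against 106, 112 and 104 CPM in 48 h withdrawal libraries. All 3 WNT libraries were above all 3 of the others, with a log2 fold change of 0.32 (SE 0.08, 95% interval 0.14 to 0.50), but edgeR's adjusted p was 0.342. Groups that did not overlap, with WNT higher, made up 8.13% of all genes tested. Myc (log2 fold change 0.08, 95% interval -0.17 to 0.32), the surface glycoprotein Cd44 (0.07, -0.08 to 0.23) and the receptor decoy Bambi (-0.03, -0.19 to 0.13) were inside 1.5-fold. Bambi had 30.0, 29.1 and 31.0 CPM with Wnt, against 30.8, 29.3 and 31.7 CPM after 48 h withdrawal. The receptor tyrosine kinase Ephb3 was fitted slightly lower (-0.12, 95% interval -0.32 to 0.08).

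**Figure D2:**
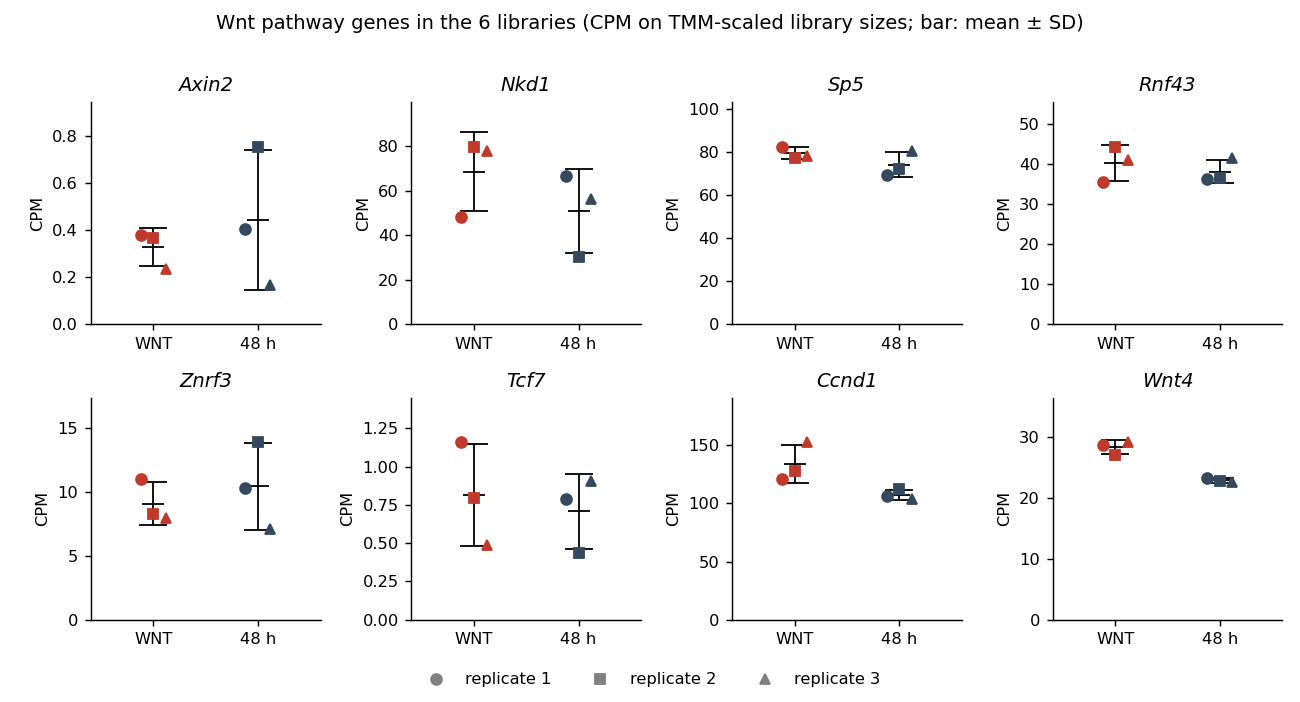
CPM of 8 Wnt pathway genes in the 3 WNT libraries (left, red) and the 3 libraries of 48 h withdrawal (right, dark blue), each point 1 library with its replicate number as the symbol and the bar the mean ± SD; each panel has its own axis from 0. Only for Ccnd1 and Wnt4, of these 8, do all WNT libraries lie above all libraries of 48 h withdrawal.

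Receptors were expressed in both groups. Of 19 receptor and co-receptor genes, 15 were tested, 6 were fitted higher and 9 lower with Wnt, none was called, and the median log2 fold change was -0.04 (-0.07 to -0.01 with 1 library left out). Per length, Fzd1 had the highest Frizzled level in the mean of the 3 WNT libraries (32.0 RPKM), followed by Fzd7 (16.2 RPKM) and Fzd6 (13.9 RPKM), whereas Fzd5 stood at 1.28 RPKM. Fzd5 had 9.72, 10.8 and 10.7 CPM with Wnt, against 9.09, 11.05 and 10.99 CPM after 48 h withdrawal (log2 fold change 0.01, 95% interval -0.25 to 0.27). Fzd6 had 72.0, 69.3 and 60.9 CPM with Wnt, against 81.3, 75.7 and 71.3 CPM after 48 h withdrawal (-0.18, 95% interval -0.34 to -0.01, edgeR adjusted p = 0.471). Fzd8 and Fzd3 were lower in all 3 WNT libraries than in any library of 48 h withdrawal. Fzd8 had 27.1, 24.7 and 27.4 CPM with Wnt, against 30.3, 35.5 and 30.2 CPM (log2 fold change -0.28), and Fzd3 had 12.1, 12.0 and 12.7 CPM, against 15.0, 15.3 and 13.4 CPM (-0.25). Groups that did not overlap with WNT lower made up 8.48% of all genes. The co-receptor Lrp5 was fitted higher (0.34, 95% interval 0.05 to 0.63), Lrp6 lower (-0.18, 95% interval -0.40 to 0.05) and Fzd1 higher (0.22, 95% interval -0.18 to 0.61). The atypical receptors Ryk (-0.04, -0.17 to 0.09) and Ptk7 (-0.01, -0.16 to 0.14) were tightly bounded.

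Among ligands, Wnt4 (chr4:137277489-137299726) had 28.7, 26.9 and 29.1 CPM in WNT libraries, against 23.3, 22.7 and 22.6 CPM in 48 h withdrawal libraries. Its groups did not overlap, with a log2 fold change of 0.31 (SE 0.08, 95% interval 0.14 to 0.48) and an edgeR adjusted p of 0.337. Wnt7a was fitted lower (-0.35, 95% interval -0.70 to -0.005), with overlapping groups, and Wnt7b had 17.8, 16.6 and 14.9 CPM with Wnt, against 14.9, 17 and 13.6 CPM after 48 h withdrawal. Wnt3a transcripts had 1.51, 0.368 and 1.33 CPM with Wnt, against 1.002, 2.87 and 1.12 CPM after 48 h withdrawal, with a wide spread within each group and overlapping groups (log2 fold change -0.64, 95% interval -2.04 to 0.76). Wls, the carrier that brings Wnt proteins to the cell surface, was the most abundant gene of the list and inside 1.5-fold (583, 568 and 585 CPM with Wnt, against 588, 674 and 560 CPM after 48 h withdrawal). Porcn, the enzyme that LGK974 blocks, had a log2 fold change of 0.11 (95% interval -0.18 to 0.40). Of 25 genes for ligands and their secretion 10 were tested and none was called, and 7 had no counts. Of 14 secreted inhibitors, Sfrp4, Wif1 and Notum passed the filter, and the list's sum was 1.34 to 2.36 CPM in WNT and 1.17 to 2.64 CPM in 48 h withdrawal.

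Genes of the destruction complex were slightly lower with Wnt in fitted value. All 18 were tested, 14 were fitted lower, none was called, 17 had intervals inside 1.5-fold and the median log2 fold change was -0.07 (-0.11 to -0.06 with 1 library left out). Transcripts of beta-catenin itself (Ctnnb1) had 976, 987 and 1000 CPM with Wnt, against 1081, 1145 and 1038 CPM after 48 h withdrawal (log2 fold change -0.14, 95% interval -0.26 to -0.02, edgeR adjusted p = 0.429). All WNT libraries were below all libraries of 48 h withdrawal, and the same held for Apc (-0.17), Axin1 (-0.14) and Amer1 (-0.29), which recruits Apc to the membrane. In all, groups did not overlap with WNT lower for 7 of the 18, against 8.48% of all genes, and with WNT higher for 0. At an unadjusted p under 0.05, 4 of the 18 were lower (22.2%, against 5.29% of all genes) and 0 higher. Amer1 had 42.2, 42.3 and 40.3 CPM with Wnt, against 49.2, 54.6 and 49.0 CPM after 48 h withdrawal, and was the 1 member that DESeq2 called lower (adjusted p = 0.048). The kinase Csnk1d (-0.05, 95% interval -0.17 to 0.06) was among the most abundant members. Of the nuclear factors, Tcf7l1 (0.05, 95% interval -0.15 to 0.24) and Tcf7l2 (-0.17, -0.41 to 0.07) overlapped between groups, and Tcf7, itself a target, had 1.16, 0.794 and 0.491 CPM with Wnt, against 0.787, 0.435 and 0.904 CPM after 48 h withdrawal. The co-activator Pygo2 was inside 1.5-fold (-0.001, 95% interval -0.13 to 0.13). The repressors Hbp1 (-0.20), Tle2 (-0.22), Tle3 (-0.13) and Tle4 (-0.23) had lower values in every WNT library, with none called. Such groups made up 4 of the 13 tested nuclear factors and co-factors, against 8.48% of all genes. In the planar polarity list 14 genes were tested, 7 fitted higher and 7 lower, with a median of 0.003 (-0.09 to 0.02 with 1 library left out) and none called; Ptk7 and Fzd6 were its most abundant members.

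Markers of the type 2 state were close in both groups. All 26 markers were tested, 12 were fitted higher and 14 lower, 21 had intervals inside 1.5-fold and none was called by edgeR. At an unadjusted p under 0.05, 4 were higher (15.4%, against 4.89% of all genes) and 1 was lower (3.85%, against 5.29%). DESeq2 called 2 of them higher, Lyz2 among these, and 0 lower. Sftpc, which encodes surfactant protein C, had 49820, 40610 and 41770 CPM in WNT libraries, against 44360, 50810 and 42370 CPM in 48 h withdrawal libraries (log2 fold change -0.06, SE 0.09, 95% interval -0.26 to 0.15). The lipid desaturase Scd1, the most abundant marker, was also inside 1.5-fold (-0.10, 95% interval -0.24 to 0.03). The phosphate transporter Slc34a2 (-0.03, -0.15 to 0.09), the surfactant lipid enzyme Lpcat1 (-0.06, -0.16 to 0.05), the lipid pump Abca3 (-0.09, -0.22 to 0.04) and the lineage factor Nkx2-1 (-0.06, -0.19 to 0.07) also had intervals inside 1.5-fold. Lyz2, lysozyme 2, was among the exceptions in value: it had 1577, 1401 and 1418 CPM with Wnt, against 1204, 1208 and 1116 CPM after 48 h withdrawal. Its groups did not overlap (log2 fold change 0.32, SE 0.06, 95% interval 0.18 to 0.45), edgeR's adjusted p was 0.320 and DESeq2's 0.0049. Reads could be split between Lyz2 and its near copy Lyz1, which had 400, 216 and 269 CPM with Wnt, against 250, 409 and 230 CPM after 48 h withdrawal. The antimicrobial Lcn2 (0.31) and the surfactant protease Napsa (0.39) also had higher values in every WNT library, and Scd1, Lpcat1, the chitinase-like Chil1 (-0.05) and the mucin Muc1 (-0.16) had lower values in every WNT library. Groups thus did not overlap for 3 markers with WNT higher and 4 with WNT lower, of 26, against 8.13% and 8.48% of all genes.

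Type 1 genes, which mark the flat cells that type 2 cells give rise to, were fitted lower more often than higher. Of 22 listed 21 were tested, 14 were fitted lower and 7 higher, none was called and the median log2 fold change was -0.09 (-0.14 without 48 h withdrawal replicate 3 and -0.07 without replicate 2). The classical markers Hopx and Ager were close in both groups. Hopx had 229, 257 and 243 CPM with Wnt, against 262, 227 and 216 CPM after 48 h withdrawal (0.05, 95% interval -0.12 to 0.21). Ager, a receptor of type 1 membranes, had 2488, 2397 and 2501 CPM, against 2618, 2766 and 2497 CPM (-0.09, -0.21 to 0.03). The water channel Aqp5 (-0.06, -0.22 to 0.10) was bounded likewise. An unadjusted p under 0.05 with lower values was reached by 7 members (33.3% of those tested) and with higher values by 1, against 5.29% and 4.89% of all genes. Clic5, a chloride channel protein, had 242, 293 and 265 CPM with Wnt, against 358, 394 and 308 CPM after 48 h withdrawal (log2 fold change -0.40, SE 0.10, edgeR adjusted p = 0.342, DESeq2 adjusted p = 0.017). Scnn1g, the gamma subunit of the epithelial sodium channel, had 75.8, 66.7 and 71.2 CPM with Wnt, against 96.2, 127 and 86.3 CPM after 48 h withdrawal (log2 fold change -0.53, SE 0.14, DESeq2 adjusted p = 0.009). Both were lower in all 3 WNT libraries. The highest value among the 6 libraries was that of 48 h withdrawal replicate 2 for 13 of the 21 tested members.

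Genes of the transitional state between type 2 and type 1 were fitted higher for 16 of 20 members, with a median of 0.18 and none called. Krt8, the keratin that marks this state, had 145, 178 and 180 CPM with Wnt, against 144, 117 and 143 CPM after 48 h withdrawal (log2 fold change 0.31, 95% interval 0.08 to 0.55). Tnfrsf12a had 69.7, 70.4 and 77.6 CPM with Wnt, against 64.6, 60.4 and 62.7 CPM (0.21, 95% interval 0.07 to 0.36). The most abundant members were Krt19 (0.38, 95% interval 0.01 to 0.75) and Krt7 (0.08, 95% interval -0.05 to 0.22). At an unadjusted p under 0.05, 6 members were higher (30%, against 4.89% of all genes) and 1 was lower (5%, against 5.29%). Replicate 2 of 48 h withdrawal was the lowest library for 12 of the 20. Without that library the median was 0.16, with 15 of 20 fitted higher, and it was 0.16 to 0.25 with any 1 library left out.

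Cell cycle genes were fitted higher with Wnt almost throughout, without a call. All 30 mitosis genes and 29 of 30 replication genes had an estimate above 0, with medians of 0.22 and 0.23, against 50.8% of all genes and a median of 0.0032. An unadjusted p under 0.05 was reached by 10 mitosis genes (33.3%) and 7 replication genes (23.3%), against 4.89% of all genes with higher values. Cdc20, an activator of the anaphase-promoting complex, had 185, 178 and 168 CPM in WNT libraries, against 106, 128 and 144 CPM in 48 h withdrawal libraries (log2 fold change 0.49, SE 0.10, 95% interval 0.27 to 0.72, edgeR adjusted p = 0.320, DESeq2 adjusted p = 0.0023). Mki67, the proliferation marker, had 65.0, 62.8 and 66.0 CPM with Wnt, against 50.3, 63.4 and 59.6 CPM after 48 h withdrawal, with overlapping groups (0.16, 95% interval -0.02 to 0.34). Top2a, topoisomerase II alpha, had 110, 85.8 and 83.4 CPM with Wnt, against 65.5, 81.8 and 75.5 CPM (0.33, 95% interval 0.05 to 0.61). The most abundant replication genes, the reductase subunit Rrm1 (0.19, 95% interval -0.03 to 0.41) and the helicase subunit Mcm6 (0.17, -0.05 to 0.38), overlapped between groups. Also among replication genes, the DNA polymerase Pole (0.43), the methylation reader Uhrf1 (0.47) and the ribonucleotide reductase subunit Rrm2 (0.39) had higher values in every WNT library. The members kept a common order of libraries. WNT replicate 1 was the highest library for 27 of 30 mitosis and 30 of 30 replication genes, and 48 h withdrawal replicate 1 the lowest for 29 and 22. Without WNT replicate 1 the mitosis median was 0.14 and the replication median 0.11, with 29 and 26 of 30 genes above 0. Without 48 h withdrawal replicate 1 they were 0.11 and 0.16, with 26 of 30 above 0 in each list. Without 48 h withdrawal replicate 2 the mitosis median was 0.34.

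Hypoxia and glycolysis genes spread widely, along another pair of libraries. Of 25 tested, 24 were fitted higher with a median of 0.44, 1 reached an unadjusted p under 0.05, none was called and only 2 intervals were inside 1.5-fold. Ndrg1, a stress gene induced in low oxygen, had 31.4, 100 and 52.7 CPM with Wnt, against 67.7, 5.14 and 39.0 CPM after 48 h withdrawal, with overlapping groups (log2 fold change 0.72, 95% interval -2.01 to 3.45). Ldha, lactate dehydrogenase A, had 1566, 1865 and 1799 CPM with Wnt, against 1506, 1005 and 1455 CPM (0.40, 95% interval -0.02 to 0.82), and the glycolytic enzyme Aldoa was similar (0.43, 95% interval -0.20 to 1.06). WNT replicate 2 was the highest library for 24 of the 25 genes and 48 h withdrawal replicate 2 the lowest for 24. Leaving out the first gave a median of 0.24, and leaving out the second gave 0.20.

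**Figure D3:**
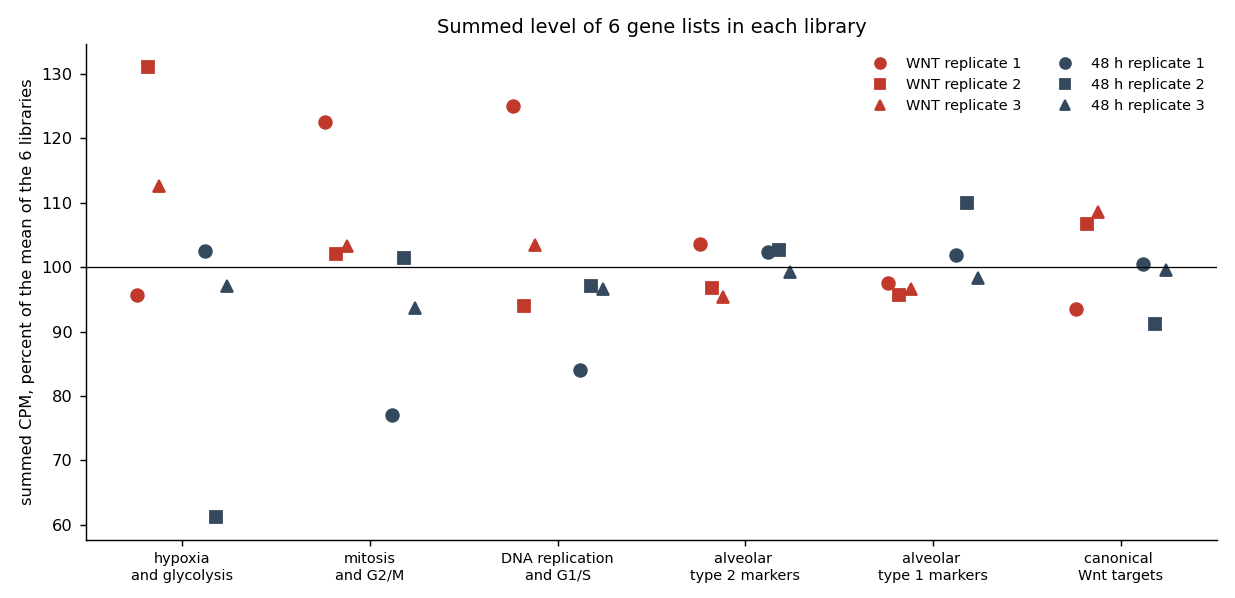
Summed CPM of 6 gene lists in each library as a percent of the mean of the 6 libraries (vertical), with WNT in red at the left and 48 h withdrawal in dark blue at the right of each pair and the symbol giving the replicate. Hypoxia and glycolysis runs from 131.1 in WNT replicate 2 down to 61.2 in 48 h withdrawal replicate 2, and mitosis from 122.5 in WNT replicate 1 down to 77.1 in 48 h withdrawal replicate 1, while type 2 markers stay close to 100 in all libraries.

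Further lists differed by small amounts. Nuclear genes of the respiratory chain were fitted higher for 26 of 27 members with a median of 0.11, and 26 of 27 intervals lay inside 1.5-fold. At an unadjusted p under 0.05, 7 were higher (25.9%, against 4.89% of all genes) and 0 lower. Groups did not overlap, with WNT higher, for 11 of the 27, against 8.13% of all genes. The ATP synthase subunits Atp5b (0.09, 95% interval -0.04 to 0.22) and Atp5a1 (0.06, -0.06 to 0.17) were the most abundant. Mitochondrially encoded genes had a median of -0.15 (mt-Cytb -0.17, mt-Nd1 -0.19), which was -0.34 without WNT replicate 1, -0.08 without WNT replicate 2 and -0.08 without WNT replicate 3, and their sum was 6581, 4616 and 4403 CPM in WNT libraries, against 5541, 6139 and 6034 CPM in 48 h withdrawal libraries. All 21 genes of the endoplasmic reticulum list were inside 1.5-fold, with 6 higher (28.6%, against 4.89% of all genes) and 1 lower at an unadjusted p under 0.05. Xbp1, a driver of the secretory programme, had 179, 183 and 179 CPM with Wnt, against 162, 158 and 153 CPM after 48 h withdrawal (0.19, 95% interval 0.08 to 0.30), and the chaperones Hspa5 (0.10, -0.01 to 0.20) and Pdia3 (0.10, -0.01 to 0.21) had higher values in every WNT library.

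In the list of NF-kB targets and epithelial cytokines 14 of 21 tested genes were fitted higher, with a median of 0.08. Replicate 2 of 48 h withdrawal was the lowest library for 12 of the 21. The median was 0.03 without WNT replicate 2, 0.06 without 48 h withdrawal replicate 2 and up to 0.12 with another library left out. At an unadjusted p under 0.05, 6 were higher (28.6%, against 4.89% of all genes) and 1 was lower, the NF-kB regulator Nfkbiz (-0.24). None was called by edgeR, and DESeq2 called the chemokines Cxcl3 and Cxcl1 higher. Cxcl3 had 79.6, 90.5 and 88.8 CPM in WNT libraries, against 65.0, 58.8 and 66.0 CPM in 48 h withdrawal libraries (log2 fold change 0.45, SE 0.07, 95% interval 0.29 to 0.60, edgeR adjusted p = 0.320, DESeq2 adjusted p = 0.00054). Cxcl1 had 29.9, 32.9 and 37.7 CPM with Wnt, against 25.7, 22.5 and 26.2 CPM (0.44, DESeq2 adjusted p = 0.026). In both, every WNT library was above every library of 48 h withdrawal. Cxcl5 (0.21) and Ccl20 (0.52) also had higher values in every WNT library, whereas the adhesion molecule Icam1 was inside 1.5-fold (-0.01, 95% interval -0.14 to 0.12). Interferon genes were fitted lower for 14 of 22, with a median of -0.09 (-0.20 without WNT replicate 2); the signal transducer Stat2 had 50.7, 49.9 and 48.4 CPM with Wnt, against 57.5, 61.3 and 60.8 CPM (-0.27, 95% interval -0.40 to -0.13, DESeq2 adjusted p = 0.042), and the RNA sensor Ddx58 was fitted at -0.10 (95% interval -0.24 to 0.05).

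Basement membrane and ion transport genes were fitted lower with Wnt more often than higher. In the first list 13 of 18 were fitted lower, none was called and the median was -0.12. WNT replicate 1 was the lowest library for 10 of the 18. Without it the median was -0.08, with 7 of 18 fitted higher, and it was -0.13 to -0.08 with any 1 library left out. Groups did not overlap for 8 members with WNT lower and 1 with WNT higher, against 8.48% and 8.13% of all genes. At an unadjusted p under 0.05, 8 were lower (44.4%, against 5.29% of all genes) and 2 were higher (11.1%, against 4.89%), the linker Nid1 (0.86), at 1.01 CPM or less in every library, and Col18a1 (0.28). The collagen IV chains Col4a1 (-0.12, 95% interval -0.23 to -0.02), Col4a2 (-0.10, -0.21 to -0.0007), Col4a3 (-0.41) and Col4a4 (-0.31) were lower in every WNT library. Col4a5 had 60.6, 61.4 and 63.6 CPM in WNT libraries, against 74.6, 79.5 and 83.0 CPM in 48 h withdrawal libraries (log2 fold change -0.35, SE 0.06, 95% interval -0.49 to -0.22, edgeR adjusted p = 0.320, DESeq2 adjusted p = 0.003). In the transport list 12 of 17 were fitted lower, 6 (35.3%, against 5.29% of all genes) at an unadjusted p under 0.05, with a median of -0.06 (-0.03 without 48 h withdrawal replicate 1); besides Scnn1g these were Scnn1b (-0.35), Cftr (-0.36), the cotransporter Slc12a2 (-0.13), Slc4a5 (-0.56) and the chloride channel Ano1 (-0.30).

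In cholesterol synthesis 24 of 25 intervals were inside 1.5-fold, and in fatty acid and surfactant lipid synthesis 17 of 20, including Scd2 (-0.07, 95% interval -0.20 to 0.05). All 20 tested cytosolic tRNA synthetases were inside, with Aars at 0.05, and so were all 13 heat shock genes, with Hsp90ab1 at -0.03 and Hspa4l at -0.09. Ribosome biogenesis genes had 24 of 26 inside (Ncl 0.09, Mybbp1a 0.06), and cytosolic ribosomal proteins a median of 0.05 (Rpl4 -0.04, Rpl8 0.02). The amino acid stress list had 21 of 25 fitted higher with a median of 0.16 (Slc3a2 -0.05, Cebpb 0.25). Antigen presentation had 13 of 15 fitted higher with a median of 0.21 (Cd74 0.12, H2-D1 0.05), and acute phase and complement 9 of 13 with a median of 0.14 (Lrg1 0.45, with an interval of -0.23 to 1.13). YAP and TEAD targets had 13 of 20 fitted lower with a median of -0.11 (Wwc1 -0.0009, Ccn1 0.09), and TGF beta targets 12 of 19 fitted higher with a median of 0.11 (Bhlhe40 0.40, 95% interval -0.30 to 1.09). Some of these medians were smaller without either library of the pair that stood at the ends of the hypoxia list. Without WNT replicate 2 the median was 0.07 for amino acid stress, 0.12 for antigen presentation, 0.07 for acute phase and complement and 0.02 for TGF beta targets. Without 48 h withdrawal replicate 2 it was 0.06 for amino acid stress (17 of 25 fitted higher), 0.13 for antigen presentation, 0.04 for acute phase and complement and 0.01 for TGF beta targets. Replicate 2 of 48 h withdrawal was the lowest library for 15 of 25, 10 of 15, 6 of 13 and 11 of 19 members of these lists. BMP and Id genes (median 0.02, Id2 0.03, Id1 0.11), Notch genes (0.05, Hes1 -0.08, Dtx4 0.0015), p53 targets (-0.02, Btg2 -0.12, Plk2 -0.22), caveolins (0.06, Cavin2 0.14, Cav2 0.14) and lung transcription factors (0.02) were centred near 0. Tight junction genes had a median of -0.06 (Cldn3 0.10, Cldn18 -0.23), immediate early genes 0.11 (Junb 0.34) and ERK feedback and growth factor receptor genes 0.06 (Fgfr2 -0.07, Errfi1 0.11). With 1 library left out these medians ran from -0.08 to -0.03, 0.04 to 0.14 and 0.01 to 0.14, that of ribosomal proteins from 0.0015 to 0.10, of Notch genes from -0.01 to 0.12 and of caveolins from 0.05 to 0.14. None of these lists had a member called by edgeR. Of the club markers, Scgb1a1 had 0.402, 0.348 and 0.655 CPM with Wnt, against 0.93, 0.493 and 0.493 CPM after 48 h withdrawal, and Cyp2f2 (-0.20, 95% interval -0.38 to -0.03) and Cbr2 (-1.02, -2.48 to 0.45) were the most abundant.

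**Figure D4:**
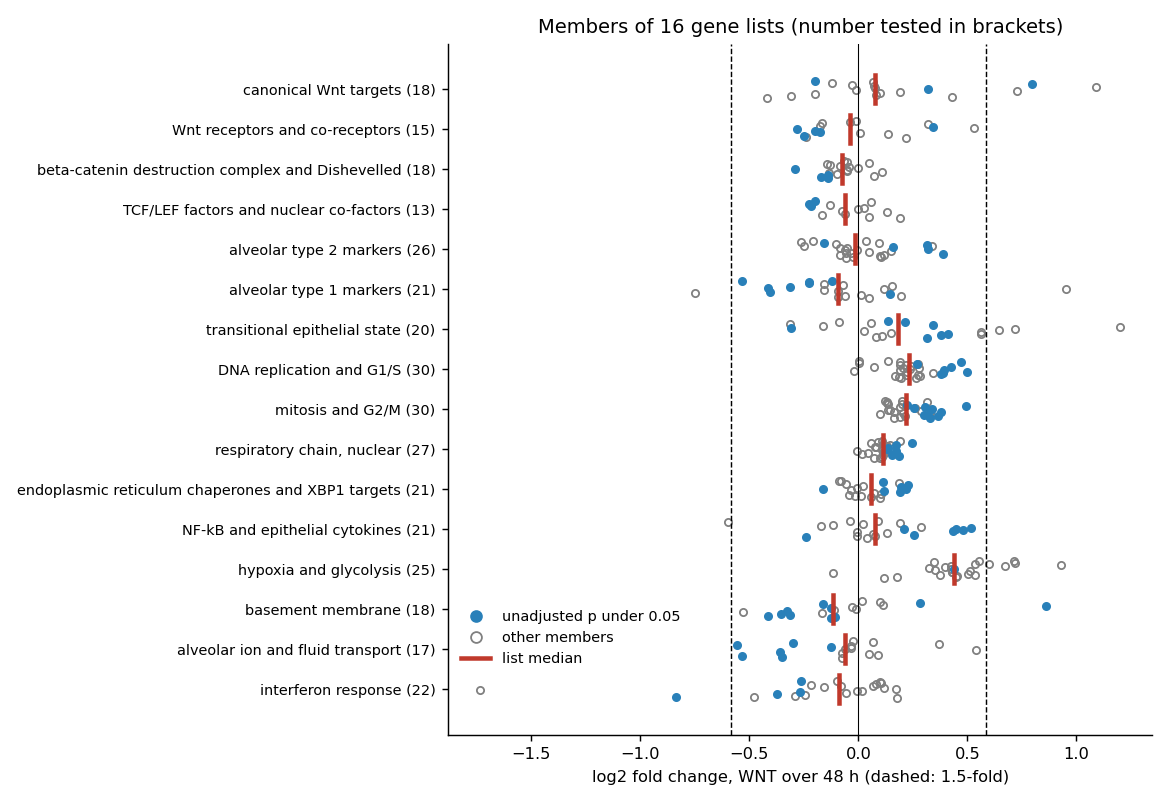
Log2 fold change of WNT over 48 h withdrawal (horizontal) for the tested members of 16 gene lists, with members at an unadjusted edgeR p under 0.05 filled, the others open, the list median as a red bar and 1.5-fold as dashed lines. Wnt targets and type 2 markers straddle 0, and the hypoxia and glycolysis list lies furthest to the right with a median of 0.44.

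The genes with the smallest edgeR p, chosen after their values were seen, were all within 2-fold. Gprin3 had 29.9, 31.4 and 26.8 CPM in WNT libraries, against 41.0, 47.0 and 41.3 CPM in 48 h withdrawal libraries (log2 fold change -0.55, SE 0.09, 95% interval -0.74 to -0.36, edgeR adjusted p = 0.320, DESeq2 adjusted p = 0.00022). Klhl24 (-0.44) and Tecpr2 (-0.63) were also lower in every WNT library, as was Tef (-0.37), a circadian output factor. Of genes called by DESeq2, the axon guidance ligand Sema3a had 22.5, 27.4 and 25.4 CPM with Wnt, against 41.9, 54.3 and 33.5 CPM after 48 h withdrawal (-0.78, edgeR adjusted p = 0.337, DESeq2 adjusted p = 0.00054). The growth factor receptor Fgfr3 had 34.5, 32.5 and 32.0 CPM with Wnt, against 48.0, 70.7 and 45.9 CPM (-0.73, DESeq2 adjusted p = 0.00054), and Csf1, the macrophage growth factor, had 131, 127 and 109 CPM, against 161, 232 and 165 CPM (-0.61, DESeq2 adjusted p = 0.0023). All 86 DESeq2 calls had groups that did not overlap and lay between 0.25 and 0.83 in absolute log2 fold change. In 51 of the 64 called lower the highest library was 48 h withdrawal replicate 2, and in 14 of the 22 called higher that library was the lowest. DESeq2 called 27 genes without that library, 20 of them among the 86. It called 13, all among the 86, without WNT replicate 3, 50 without 48 h withdrawal replicate 1, 135 without WNT replicate 1 and 160 without WNT replicate 2.

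In the other groups of the series, given as values on TMM scaling over all 18 libraries, the pathway readouts stood as follows. Axin2 had 0.384, 0.373 and 0.238 CPM with Wnt and 4.94, 2.88 and 2.95 CPM with the FZD5 agonist. It had 1.09, 2.90 and 2.12 CPM with the FZD6 agonist. Along withdrawal it had 2.38, 9.43 and 1.55 CPM with CHIR, 2.20, 0 and 1.83 CPM after 24 h, and 0.413, 0.771 and 0.167 CPM after 48 h. WNT and 48 h withdrawal were thus the 2 groups with all libraries below 1 CPM. Lgr5 was at or below 0.310 CPM in every WNT library and 0.112 CPM in every library of 48 h withdrawal, and had 7.74, 10.1 and 1.06 CPM with CHIR. Nkd1 ran the other way along withdrawal, with 4.81, 6.57 and 8.81 CPM with CHIR, 27.9, 26.6 and 14.0 CPM after 24 h and 67.8, 30.6 and 57.2 CPM after 48 h, and it had 48.7, 80.9 and 79.4 CPM with Wnt. Bambi was at 30.4, 29.5 and 31.6 CPM with Wnt and 31.4, 30.0 and 32.2 CPM after 48 h, and lower in every library of the other 4 groups, the highest being 19.95 CPM. CHIR replicates 1 and 3, FZD6 agonist replicate 1 and 24 h withdrawal replicate 2 stood apart from the rest of the series (median r with the other libraries 0.782 to 0.950, against 0.978 to 0.982 for the 6 compared here), and their part in these levels was not tested.

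**Figure D5:**
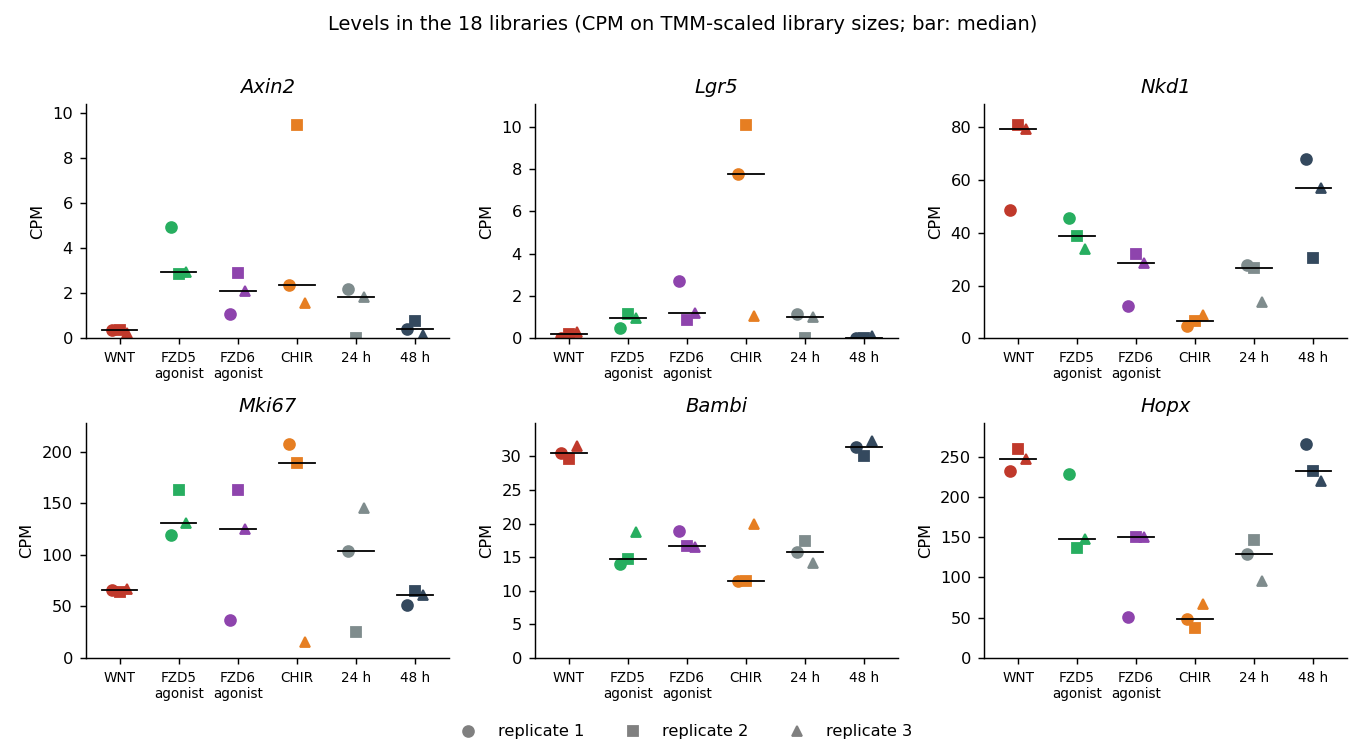
CPM of 6 genes in all 18 libraries, with WNT and both agonists at the left and CHIR, 24 h and 48 h of withdrawal at the right, each point 1 library with its replicate number as the symbol and the bar the group's median. In WNT and in 48 h withdrawal alike, Axin2 lies under 1 CPM and Bambi between 29.5 and 32.2 CPM.

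The FZD5 agonist also took the place of CHIR in the presence of LGK974, which allowed the WNT libraries to be compared with those of another ligand. The Wnt dose is not stated, and the time since CHIR removal is not given for either group. Differences between the ligands thus cannot be told apart from differences in dose or timing. In a fit of the 9 libraries of WNT, FZD5 agonist and 48 h withdrawal, edgeR called 1309 genes higher (8.36%) and 1264 lower (8.07%) with Wnt than with the FZD5 agonist, of 15660 tested. The count was 1272 without WNT replicate 3 and 1795 to 3045 with any other library of these 2 groups left out. Axin2 averaged 0.331 ± 0.081 CPM with Wnt and 3.56 ± 1.16 CPM with the FZD5 agonist (SD, n = 3 each), a log2 fold change of -3.40 (95% interval -4.33 to -2.47, edgeR adjusted p = 0.00040). Of 20 canonical targets tested, 7 were lower with Wnt, among them Tcf7 (-1.52), Sox9 (-2.59), Znrf3 (-0.90) and Rnf43 (-0.46), and 4 were higher, among them Bambi (0.96) and Ccnd1 (0.50). Nkd1 (0.83, edgeR adjusted p = 0.132) and Sp5 (-0.28, adjusted p = 0.057) were not called. All 30 mitosis genes were lower with Wnt, with Mki67 averaging 65.5 ± 1.55 CPM with Wnt and 136 ± 22.2 CPM with the FZD5 agonist (log2 fold change -1.06, adjusted p = 0.00023). Of 27 nuclear respiratory chain genes 25 were higher with Wnt and none lower. Of 26 type 2 markers, 10 were called higher with Wnt, among them Napsa (0.73), 3 lower, among them Etv5 (-0.98), and 13 were not called. Of 22 type 1 markers tested, 1 was called higher and 2 lower with Wnt, and 19 were not called. Hopx (0.54, edgeR adjusted p = 0.070), Ager (0.33, adjusted p = 0.400) and Sftpc (-0.10, adjusted p = 0.652) were among the alveolar markers not called.

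The FZD5 agonist against the same 48 h withdrawal libraries, in the design used for Wnt, gave 1958 calls of 15031 genes tested (13%), 1036 higher (6.89%) and 922 lower (6.13%), where Wnt gave 0. Both comparisons share the 48 h withdrawal libraries, and the same limits of dose and timing hold. The agonist's count was 3068, 1224 and 1048 without its replicate 1, 2 or 3, and 828, 1204 and 790 without 48 h withdrawal replicate 1, 2 or 3.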

How the data were processed

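RNA from a column kit went into a stranded total RNA preparation, per the labels' protocols. The authors deposited 1 table per library with raw counts per gene, RPKM values and a gene width. The submitters' processing notes name GSNAP and GRCm38; of versions, counting tool and strand setting nothing is given in the sources used here, and reads of overlapping or antisense genes could not be separated. The RPKM values, computed by the authors, were used only to rank Frizzled levels per length. Identifiers were matched to GENCODE M21 (52403 of 52636, 99.6%), which gave the gene coordinates on GRCm38, 1-based. Promoters come from RefSeq, GRCm38.p6.

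Counts of the 6 libraries were filtered (filterByExpr by group, 15183 kept and 37453 removed), scaled by TMM and tested two-sided with edgeR 4.0.16 (robust glmQLFit, glmQLFTest) in R 4.3.3, with Benjamini-Hochberg adjusted p under 0.05 over all genes as the threshold and no covariate. SE and 95% intervals come from the same fit. CPM use TMM-scaled library sizes. The scripts were tested on simulated data. Alternatives included DESeq2 1.42.0 and limma 3.58.1. Libraries held 34087850 to 52030066 counts and replicates differed by more than counting error, so intervals rest on the spread between libraries; the floor of 3 counts covers counting error only.

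The members and the 47 gene lists were chosen with earlier results of these data known. Genes were to be named by size and p among calls, as called list members, as the 2 most abundant uncalled members of each list, and always Axin2, Lgr5, Nkd1, Notum, Rnf43, Znrf3, Sp5, Lef1, Tcf7, Fzd5, Fzd6, Wnt3a, Sftpc, Hopx, Ager, Scgb1a1 and Mki67. With no calls, all others named were chosen after their values were seen.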

Additional observations from a re-analysis of the deposited data

How the results depend on the processing

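The count of 0 calls for WNT against 48 h withdrawal held with RLE and upper-quartile factors, limma voom, and a filter asking for 1 CPM in 3 or more libraries. It also held in a fit of 9 libraries and with mitochondrial and ribosomal RNA genes left out. A test against 1.5-fold gave 0 too, but it is stricter than the main test and could not have called more. The fit of 18 libraries gave 0, with 35 genes at an unadjusted p under 0.05, against 1546 in the main fit. That fit holds the libraries that stood apart from the rest of the series, so its 0 adds little. DESeq2 called 86 and the fit with no filter on low counts 390, and 81 of the 86 were among the 390. Both used the same counts, so this overlap is no separate support. Of the 390, 381 had been tested with the filter, 349 at an unadjusted p under 0.05. edgeR's prior degrees of freedom set the weight of the variance shared between genes. Their median was 7.1 in the main fit and infinite without the filter. At an infinite value a gene's own spread carries no weight. The cause of the added calls was not tested. Leaving out 1 library gave 0 to 2 calls; the 2, Elf2 and Rraga, were called higher without WNT replicate 2. Elf2 had 56.1, 23.7 and 60.2 CPM in WNT replicates 1 to 3, against 30.7, 25.2 and 28.4 CPM in 48 h withdrawal. List members called were 0, with 13 under DESeq2 and 57 with no filter on low counts, and 0 with each library left out. Over 6 leave-one-out fits DESeq2 called 13 to 160 genes. The replicate block, the replicate number as a term, gave 0 calls (smallest edgeR adjusted p 0.705). Same-numbered libraries deviated from their group means with r of -0.476, -0.439 and 0.084 for replicates 1 to 3. So few values, from deviations within groups of 3, cannot settle whether the numbers pair the libraries.

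Intervals inside 1.5-fold counted 9965 genes, 9617 with the replicate block and 9222 to 9785 with 1 library left out; the 18-library fit gave 2336. Of 3147 values of 186 named genes under the alternatives, 3096 kept their sign, none that was called reversed, and 171 passed the threshold, 82 under DESeq2 and 87 with no filter. The 186 included genes chosen because DESeq2 called them, because their edgeR p was smallest, or because they were called without WNT replicate 2. These counts thus follow in part from that choice and are no separate support. For WNT against the FZD5 agonist the count was 1272 to 3045 with 1 library left out and 1997 with the replicate block. For the FZD5 agonist against 48 h withdrawal it was 790 to 3068 with 1 library left out and 992 with the replicate block. The leave-one-out runs of DESeq2 and all alternatives for the FZD5 agonist were chosen after seeing the data. Depth limits Lgr5 and Lef1, which were at or near the floor of 3 counts.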
